A study of Mus musculus with 12 samples.

Results

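The genes described here are 9 that handle iron and heme: the ferritin subunits Fth1 and Ftl1, the iron uptake genes Tfrc and Trf, the heme breakdown enzymes Hmox1, Blvra and Blvrb, and the iron sensors Ireb2 and Aco1. They were taken by symbol from the deposited table of counts, and all 9 were among its 12339 genes. Every one of them passed the filter on low counts. RNA was sequenced from peritoneal macrophages recruited with sterile thioglycolate and collected by lavage. Wild-type mice (WT) were compared with meKO mice, read here from the series title as a myeloid knockout of Prkce, the gene of protein kinase C epsilon. Which recombinase was used, and so which myeloid cells lost the gene, is not stated in the labels. All animals of both genotypes received AAV8PCSK9 at 8 weeks of age, a viral vector used to strip the LDL receptor from liver cells. They then stayed on chow or were fed a high-fat Western diet (HFD) for 4 weeks, which with the vector raises blood cholesterol. Each of the 4 groups, chow and HFD in WT and chow and HFD in meKO, held 3 libraries. No group lacked the vector, so the comparisons are of genotype and of diet within mice that all carried it. The labels do not tie each library to 1 mouse or to a pool, so p-values measure the spread between these libraries, which may be technical.

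Macrophages take up iron bound to transferrin, the product of Trf, through the transferrin receptor encoded by Tfrc. They also gain iron when they engulf red blood cells, because heme oxygenase 1 (Hmox1) opens the heme ring and frees its iron, leaving biliverdin that the biliverdin reductases Blvra and Blvrb turn into bilirubin or related products. Surplus iron is stored in ferritin, a shell of heavy (Fth1) and light (Ftl1) chains, or leaves the cell through ferroportin (Slc40a1). The iron regulatory proteins IRP1 (Aco1) and IRP2 (Ireb2) bind RNA hairpins called iron-responsive elements when iron is scarce. Bound at the 5′ end of a message they block its translation, and bound at the 3′ end of Tfrc they protect the message from decay. Counts of RNA therefore do not show how much ferritin protein was made.

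Iron-responsive elements were located because they are the sequences through which Ireb2 and Aco1 act on the other genes. The search read the sense strand of a protein-coding transcript of each gene, the longest of those annotated as principal. It looked for an unpaired C, a 5-base upper stem that pairs by Watson-Crick or G-T rules, and the loop CAGTGN between its arms. A match was found in 3 of the 9 genes, Fth1, Ftl1 and Tfrc, and also in Slc40a1. Over all protein-coding genes 271 of 21877 held a match, which is 1.24%. That count read the longest protein-coding transcript of each gene, principal or not, so the choice of transcript differed. Each sequence is printed 5′ to 3′ on the transcript's strand from GRCm38, with 29 bases and the loop in capitals.
Fth1, 5′ UTR, chr19:9982732-9982760, plus strand: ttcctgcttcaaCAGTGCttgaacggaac
Ftl1, 5′ UTR, chr7:45459779-45459807, minus strand: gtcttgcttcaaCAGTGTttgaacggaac
Slc40a1, 5′ UTR, chr1:45925465-45925493, minus strand: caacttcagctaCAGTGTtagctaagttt
Tfrc, 3′ UTR, site 1, chr16:32631219-32631247, plus strand: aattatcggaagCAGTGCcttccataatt
Tfrc, 3′ UTR, site 2, chr16:32631598-32631626, plus strand: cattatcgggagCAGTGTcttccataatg
Tfrc, 3′ UTR, site 3, chr16:32631663-32631691, plus strand: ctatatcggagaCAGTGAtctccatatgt
Tfrc, 3′ UTR, site 4, chr16:32631710-32631738, plus strand: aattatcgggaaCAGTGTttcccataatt
The ferritin and ferroportin messages carried a single match each before the coding region, and Tfrc carried 4 after it. No match in the other 6 genes says only that these letters were not found in the transcript searched.

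**Figure D1:**
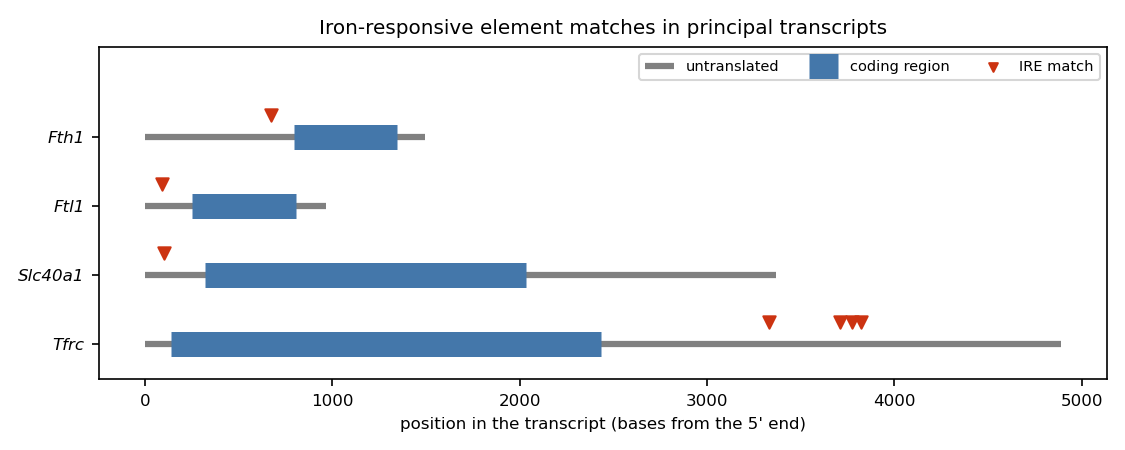
Matches to the iron-responsive element (red triangles) along the principal protein-coding transcript of 4 genes, in bases from the 5′ end, with the coding region in blue and untranslated sequence in grey. The match lies before the coding region in Fth1, Ftl1 and Slc40a1, and the 4 matches of Tfrc lie after it.

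Libraries held 25844958 to 37282772 counts over the listed genes, and levels are given in CPM, counts scaled to the size of the library with the trimmed mean of M-values (TMM). Prkce lay at 2.01 to 4.44 CPM in WT and 0.95 to 1.78 CPM in meKO, with no overlap, at low depth. Of 8 macrophage markers, the lysozyme gene Lyz2 stood at 30480 to 53840 CPM in WT and at 69.3 to 21310 CPM in meKO. The other 7 summed to 4969 to 5638 CPM in WT and to 5068 to 6231 CPM in meKO, so the genotypes overlapped without Lyz2. Only 3 of 8 red blood cell markers were listed, all hemoglobin genes, with a sum of 1.15 to 42.6 CPM, and the 4 liver markers were not listed. Fewer cells of a type and less RNA per cell cannot be told apart in bulk samples such as these. Across genes, the fitted log2 fold change fell with transcript length, with a Spearman's rho of -0.60 for meKO chow against WT chow and -0.54 for WT HFD against WT chow. Genes are not independent replicates, so these rho values are descriptions. The ferritin and biliverdin reductase transcripts are short (968 to 1494 bases) and those of Tfrc, Aco1 and Ireb2 are long (3832 to 5770 bases), so values corrected for length and GC content are given where they change a call or move a result discussed here.

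The library meKO chow replicate 2 stood apart for these genes. It held the highest level of 5 of the 9 genes (Fth1, Ftl1, Tfrc, Hmox1 and Blvrb), against 4.29% of all genes. Hmox1 reached 1987 CPM there, and the next library was at 770 CPM. Outside the 9 genes, Slc40a1 stood at 73.5 CPM against 17.0 CPM in the next library, the heme transporter gene Slc48a1 at 208 against 136 CPM, and the glutathione synthesis gene Gclm at 46.9 against 23.6 CPM. Spic, a transcription factor of heme-recycling macrophages, stood at 2.82 against 1.21 CPM. These genes belong to lists described below, of which most genes were not highest in this library. It was highest for 3 of 15 genes of iron transport and release and 2 of 10 of heme uptake and transport. For ferritin chaperones and turnover, heme synthesis and iron-sulfur cluster assembly it was highest for 0 of 6, 0 of 8 and 0 of 22 genes. In the NRF2 and BACH1 list it was highest for 7 of 16, while Slc7a11 of that list was lowest there (1.06 CPM). The same library had 69.3 CPM of Lyz2, where the other 5 meKO libraries had 16290 to 21310 CPM. The 6 markers of heme and iron recycling macrophages, Hmox1 among them, summed to 3072 CPM in it and to 1870 CPM in the next library, WT HFD replicate 3. Without Hmox1 the other 5 summed to 1085 CPM in it, below the 1150 to 1495 CPM of WT HFD replicates 2 and 3 and meKO HFD replicates 2 and 3. Its 3 hemoglobin transcripts summed to 10.2 CPM, below the 30.1 CPM of meKO chow replicate 3 and the 42.6 CPM of meKO HFD replicate 2. The part of any of these in the results below was not tested. Differences of single genes that rest on this library are given with and without it.

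**Figure D2:**
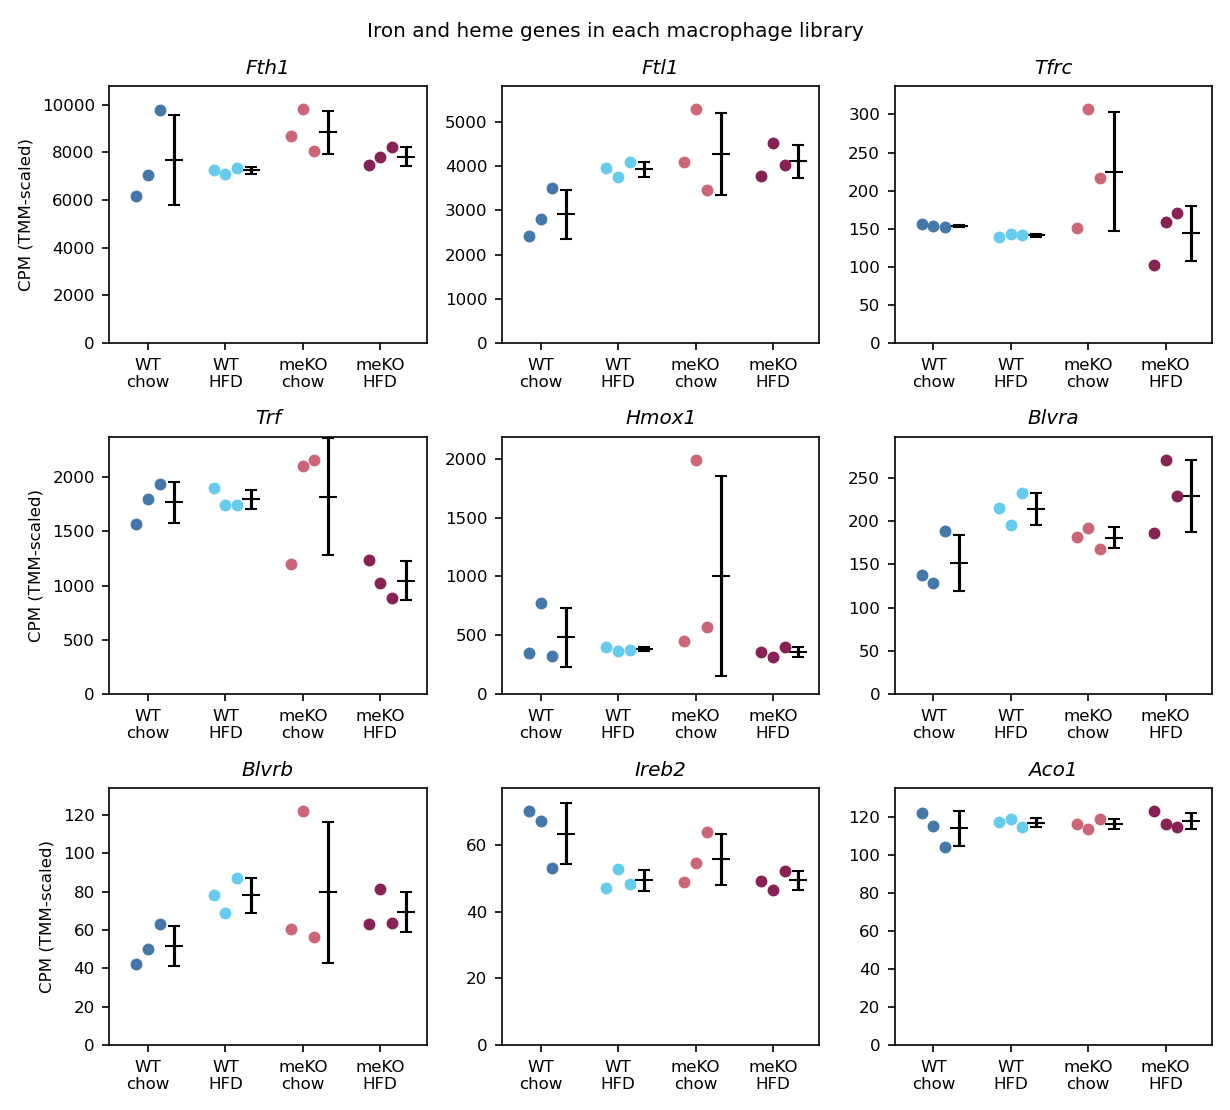
Level of each of the 9 genes in the 12 libraries, in TMM-scaled CPM on linear axes that start at 0; points are libraries in replicate order and the black bar beside each group is its mean ± SD (n = 3). The 4 lowest Trf values are those of the 3 meKO HFD libraries and meKO chow replicate 1, and Hmox1 is highest in meKO chow replicate 2 at 1987 CPM.

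Per kilobase of transcript, the ferritin messages were the most abundant of the 9. Over the 12 libraries the level was 5285 ± 734 CPM per kb (SD) for Fth1 and 3931 ± 767 CPM per kb for Ftl1. Trf followed at 625 ± 166 CPM per kb, Hmox1 at 354 ± 299 and Blvra at 167 ± 34.1. Lower still were Blvrb at 67.8 ± 20.3, Tfrc at 34.0 ± 10.5, Aco1 at 30.4 ± 1.26 and Ireb2 at 9.44 ± 1.40 CPM per kb. In this order the neighbours Fth1 and Ftl1, Trf and Hmox1, Hmox1 and Blvra, and Tfrc and Aco1 overlapped within 1 SD of each other. The genes were measured in the same libraries, which an overlap of SDs does not use. Fth1 counts were at least 1.72 times those of Ftl1 in every library, on transcripts of 1494 and 968 bases. Aco1 varied least, with its highest library 1.18 times its lowest, and Hmox1 most, at 6.26 times.

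Few of these genes passed the test in any comparison. In edgeR's quasi-likelihood test with Benjamini-Hochberg adjustment over all genes, 0 of the 9 were called for genotype on chow, where 0.081% of all genes were called, and 0 for genotype on HFD, again with 0.081% of all genes called. Blvra was the 1 of the 9 called for diet in WT, against 21.3% of all genes. For diet in meKO 0 of the 9 were called, against 0.105%. The interaction of genotype and diet gave 0 of the 9 against 0.0162%, and genotype averaged over the diets 0 against 0.17%. Prkce itself was not called for genotype either. Its log2 fold change was -1.47 on chow, -0.80 on HFD and -1.135 averaged over diets (edgeR adjusted p = 0.0794, 0.989 and 0.0588). Diet averaged over the genotypes gave 3 of the 9 (Blvra higher, Ireb2 and Trf lower), against 30.2% of all genes. The shares for diet (1 of 9 in WT, 3 of 9 averaged) are near or below the background. Beside the counts of 0, an unadjusted edgeR p under 0.05 was reached by Ftl1, Tfrc and Blvrb for genotype on chow (19.8% of all genes), by Trf for genotype on HFD (4.56%), and by Tfrc, Trf, Hmox1 and Blvra for diet in meKO (15.9%). For the interaction it was reached by Ftl1, Trf and Blvrb (6.13% of all genes) and for averaged genotype by Ftl1 and Trf (17.7%). Without meKO chow replicate 2 it was reached by Ftl1 alone for genotype on chow. It was then reached by Trf alone for genotype on HFD, diet in meKO, the interaction and averaged genotype. Limma-voom called 0 of the 9 in each of these 5 comparisons. The median log2 fold change of the 9 was 0.25 for genotype on chow, beside -0.00 for all genes, and -0.18 for diet in meKO, beside -0.01 for all genes. The interaction median of the 9 was -0.49, beside 0.02 for all genes, and 8 of the 9 had a negative value. Across genes the interaction rose with transcript length (Spearman's rho 0.47). After correction for length and GC content it was 0.01 for Fth1, 0.05 for Blvra and 0.12 for Ireb2, and negative for the rest. That correction gave genotype on chow values of -0.02 for Blvra, -0.03 for Trf and -0.05 for Ireb2, and left the rest positive. The medians above were taken with all 12 libraries, meKO chow replicate 2 among them. The 9 were not tested as a set.

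Other tools called more genes of all kinds. DESeq2 called Ftl1 for genotype on chow (4.56% of all genes), Trf for genotype on HFD (0.43%), and Trf again for diet in meKO (1.83%). Its calls for diet in WT were Ftl1, Blvra and Ireb2 (27.9%). It called 0 of the 9 for the interaction (0.122%) and for averaged genotype (2.97%), and Trf, Blvra and Ireb2 for averaged diet (34.4%). Voom with library quality weights, which gives less weight to libraries that stand apart, called 5 of the 9 for genotype on chow (32.8% of all genes), 1 for genotype on HFD (1.04%), 1 for diet in meKO (3.23%) and 4 for diet in WT (52.0%). It called Trf for the interaction (2.39%), 4 of the 9 for averaged genotype (31.1%) and 5 for averaged diet (51.0%). For diet in WT, library totals called Blvra and Ireb2 (22.2%), and the correction for length and GC content called 0 of the 9 (12.8%). For averaged diet that correction called Fth1, Trf and Aco1 (24.1%). Where many of the 9 were called, many of all genes were called too.

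**Figure D3:**
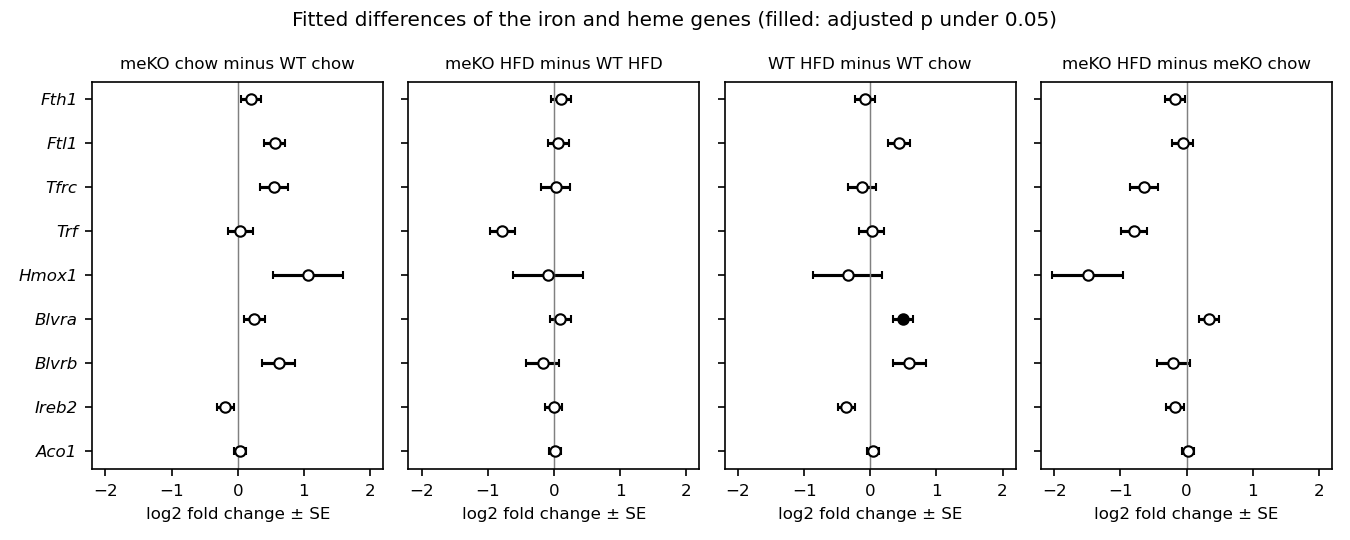
Fitted log2 fold changes ± SE of the 9 genes in the 4 comparisons between pairs of groups (3 libraries each), with filled points for an edgeR adjusted p under 0.05. The single filled point is Blvra for diet in WT, and the widest error bars are those of Hmox1.

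The ferritin heavy chain gene Fth1 encodes the subunit that oxidises iron for storage. In WT it stood at 6176, 7051 and 9796 CPM on chow, then at 7266, 7094 and 7362 CPM on HFD. In meKO the values were 8685, 9803 and 8039 CPM on chow, then 7450, 7787 and 8239 CPM on HFD. WT chow replicate 3 lay near the top of all libraries and the other WT chow libraries at the bottom, so the chow groups overlapped, while every meKO HFD library lay above every WT HFD library. Of all genes, 5.45% were higher without overlap in that comparison. For genotype on chow the log2 fold change was 0.20 ± 0.15 (SE), with an edgeR adjusted p of 0.443. Without WT chow replicate 3 it was 0.43 with an edgeR adjusted p of 0.0284, and genotype averaged over diets moved from 0.16 (edgeR adjusted p = 0.424) to 0.27 (0.0488). Over all genes, edgeR calls without that library went from 10 to 2543 for genotype on chow and from 21 to 1400 for averaged genotype. Corrected for length and GC content, genotype on chow was 0.06 (edgeR adjusted p = 0.847). The same correction moved diet averaged over genotypes from -0.13 (edgeR adjusted p = 0.363) to -0.25 (0.0367), past the threshold.

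The ferritin light chain gene Ftl1 encodes the subunit that helps to form the iron core. It stood at 2419, 2808 and 3495 CPM in WT chow and at 3953, 3746 and 4085 CPM in WT HFD. In meKO chow it was at 4092, 5284 and 3453 CPM, and in meKO HFD at 3788, 4520 and 4022 CPM. The 2 lowest libraries were in WT chow, and WT HFD lay above WT chow without overlap, as 19.4% of all genes did in the higher direction. The log2 fold change for genotype on chow was 0.56 ± 0.16 (SE, edgeR adjusted p = 0.118), and that for diet in WT 0.43 ± 0.16 (edgeR adjusted p = 0.0672), so neither passed. DESeq2 called both, with adjusted p-values of 0.0289 and 0.0351. Without WT chow replicate 3 edgeR also called both, at 0.72 (adjusted p = 0.0119) and 0.60 (adjusted p = 0.0120), and without meKO chow replicate 2 the diet value was 0.44 (adjusted p = 0.0458) and the genotype value 0.39 (0.347). Genotype averaged over diets moved from 0.31 (edgeR adjusted p = 0.206) to 0.39 (0.0364) without WT chow replicate 3. Without that library edgeR calls over all genes rose from 10 to 2543 for genotype on chow. They rose from 2634 to 4921 for diet in WT and from 21 to 1400 for averaged genotype. Corrected for length and GC content, the 2 simple values were 0.31 (edgeR adjusted p = 0.272) and 0.08 (0.691).

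The balance of the 2 ferritin messages was also read as a ratio. The ratio of Fth1 to Ftl1 counts was 2.55, 2.51 and 2.80 in WT chow and 1.84, 1.89 and 1.80 in WT HFD, with no overlap. In meKO the ratio was 2.12, 1.86 and 2.33 on chow and 1.97, 1.72 and 2.05 on HFD, and these overlapped. The ratio was taken up after its values were seen, so it is a description and was given no test. Ftl1-ps2, the single other listed symbol of the ferritin families, stood at 9.80 to 19.8 CPM and was highest in meKO chow replicate 2, as Ftl1 was. Ferritin genes have near-identical processed pseudogenes, and how shared reads were counted is not given in the sources used here, so the split of reads among these copies is uncertain.

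Tfrc encodes the receptor that brings transferrin-bound iron into the cell. Its level was 156, 153 and 152 CPM in WT chow and 139, 143 and 142 CPM in WT HFD. The meKO libraries had 151, 307 and 217 CPM on chow, then 102, 159 and 170 CPM on HFD. The WT libraries were tightly grouped, with a highest library 1.12 times the lowest over both diets, and the highest meKO library was 2.996 times the lowest. WT HFD lay below WT chow without overlap, as 19.9% of all genes did in the lower direction, with a small difference in means (154 ± 1.81 against 142 ± 1.97 CPM, SD, n = 3). The log2 fold change was 0.55 ± 0.22 for genotype on chow (SE, edgeR adjusted p = 0.187) and -0.65 ± 0.22 for diet in meKO (edgeR adjusted p = 0.225). Without meKO chow replicate 2 these were 0.27 and -0.37 (edgeR adjusted p = 0.551 and 0.359). Diet averaged over genotypes was -0.38 (edgeR adjusted p = 0.0694), and without meKO chow replicate 2 it was -0.24 (edgeR adjusted p = 0.173). It passed in 2 of 21 alternatives, without meKO chow replicate 1 at -0.49 (edgeR adjusted p = 0.0215) and with library totals at -0.45 (0.0385).

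Trf encodes transferrin, the carrier of iron in plasma, which is best known as a liver product. It was abundant here while the liver markers were not listed. Trf stood at 1563, 1802 and 1936 CPM in WT chow, at 1899, 1742 and 1745 CPM in WT HFD, and at 1194, 2105 and 2154 CPM in meKO chow. The meKO HFD libraries had 1236, 1021 and 882 CPM. Every meKO HFD library lay below every WT HFD library, as 4.85% of all genes did, and meKO chow replicate 1 lay among the meKO HFD libraries. On HFD the mean was 1796 ± 89.9 CPM for WT and 1046 ± 178 CPM for meKO (SD, n = 3). The log2 fold change for genotype on HFD was -0.78 ± 0.19 (SE), with an edgeR p of 0.00126 and an adjusted p of 0.370. For diet in meKO it was -0.80 ± 0.19, with an edgeR adjusted p of 0.134.

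Each of these Trf differences passed in 3 of 22 alternatives. DESeq2 gave adjusted p-values of 0.0285 for genotype on HFD and 0.0109 for diet in meKO. Without meKO chow replicate 1 the edgeR adjusted p-values were 0.04998 and 0.0203, with log2 fold changes of -0.78 and -1.03. Voom with library quality weights was the remaining one for both. Limma-voom gave an adjusted p of 0.415 for genotype on HFD, and without any 1 HFD library the edgeR adjusted p was 0.177 to 1.0. The interaction, which tests whether the genotypes differ in their response to diet, was -0.82 ± 0.27 (SE) with an edgeR adjusted p of 0.773, and it passed in voom with library quality weights alone (adjusted p = 0.0425). Averaged over genotypes, Trf fell by 0.39 ± 0.14 on the log2 scale on HFD (SE, edgeR adjusted p = 0.0456), and in WT the group means were 1767 CPM on chow and 1796 CPM on HFD. That call was lost without any single WT library, without meKO chow replicate 2 or 3 and without meKO HFD replicate 2 or 3, with edgeR adjusted p-values of 0.0617 to 0.118. It was also lost in limma-voom (adjusted p = 0.0622) and with median-of-ratios factors (edgeR adjusted p = 0.0520). The genes whose levels followed Trf most closely over the 12 libraries were Lpar6 (Pearson's r of log2 CPM 0.92) and Pus10 (0.86), chosen as the highest among all genes.

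Trf lies on chromosome 9 (GRCm38, minus strand, 103208795 to 103230444), the chromosome of 7 of the 8 genes with a known position that were called for genotype on HFD, beside 5.4% of the listed genes with a known position. Of the 50 other listed genes that start within 4 Mb of Trf, 5 were called in that comparison, where 0.081% of all genes were called. All 5 lay on the side of higher coordinates, at 1.92 to 3.24 Mb. Rpl29, a ribosomal protein gene, had a log2 fold change of 5.22 ± 0.25 (SE) and the nucleotide hydrolase gene Nudt16 one of -2.24 ± 0.33. These neighbours and the window were chosen after their values were seen. Rpl29 was at 6.51 to 6.89 CPM in WT HFD and at 67.2 to 130 CPM in WT chow. The nearest listed genes were Srprb, a subunit gene of the signal recognition particle receptor, at -0.24 ± 0.10, and the DNA repair gene Topbp1, at 0.01 ± 0.19. Neither was called (edgeR adjusted p = 0.999 for both), and Trf was not called either (0.370). Every meKO HFD library lay below every WT HFD library for Srprb, as for Trf, while the Topbp1 groups overlapped. Of the 50 neighbours, 18 had groups without overlap, beside 5.45% of all genes higher and 4.85% lower. Within 1 Mb of Trf this held for 2 of 12 listed genes. Prkce is on chromosome 17. The part of the chromosome 9 neighbours in the Trf values was not tested.

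**Figure D4:**
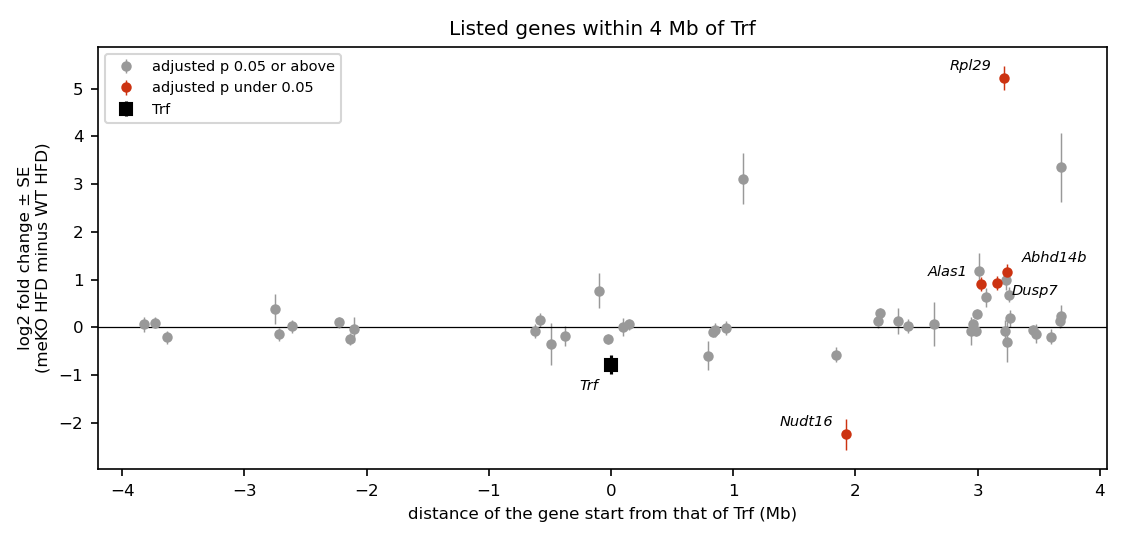
Fitted log2 fold change ± SE for meKO HFD minus WT HFD (3 libraries each) of the listed genes that start within 4 Mb of the start of Trf, by distance in Mb. Trf (black square) is at -0.78, and the 5 genes with an edgeR adjusted p under 0.05 (red) all lie between 1.92 and 3.24 Mb on the side of higher coordinates.

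Hmox1 encodes the inducible heme oxygenase. It stood at 351, 770 and 322 CPM in WT chow and at 398, 366 and 375 CPM in WT HFD. Its level in meKO chow was 453, 1987 and 570 CPM, and in meKO HFD 354, 317 and 397 CPM. The HFD libraries lay close together in both genotypes and the chow libraries were spread out, with a high library in each genotype. All meKO HFD libraries lay below all meKO chow libraries, as 9.38% of all genes did. The log2 fold change for diet in meKO was -1.50 ± 0.54 (SE, edgeR adjusted p = 0.264), and without meKO chow replicate 2 it was -0.53 (edgeR adjusted p = 0.363). For genotype on chow it was 1.06 ± 0.53 (edgeR adjusted p = 0.291), and 0.10 (0.883) without that library. Without WT chow replicate 2, the other high library, genotype on chow was 1.58 (edgeR adjusted p = 0.447). Averaged over genotypes the diet value was -0.92 ± 0.38 (edgeR adjusted p = 0.0898), which passed without meKO chow replicate 1 (-1.09, adjusted p = 0.0359) and was -0.43 (0.104) without meKO chow replicate 2.

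Hmox1 levels over the 12 libraries were followed most closely by Gclm, a subunit gene of the enzyme that starts glutathione synthesis (Pearson's r of log2 CPM 0.92), and by Ikbkg, a regulatory subunit gene of the NF-kappaB kinase (0.92). Without the 2 libraries farthest from the Hmox1 median, meKO chow replicate 2 and WT chow replicate 2, r was 0.42 and 0.46, so these likenesses rest on those libraries. Among the 9 genes, Tfrc was the nearest to Hmox1 (r = 0.79), and r was 0.37 without meKO chow replicate 2. The libraries share their scaling and the 4 groups, so these correlations are descriptions.

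Blvra encodes biliverdin reductase A, which makes bilirubin. It stood at 138, 128 and 189 CPM in WT chow and at 215, 195 and 232 CPM in WT HFD. In meKO chow it was at 181, 192 and 168 CPM, and in meKO HFD at 187, 270 and 229 CPM. Each WT HFD library lay above each WT chow library, as 19.4% of all genes did, and the meKO groups overlapped. Blvra rose in WT on HFD, from 152 ± 32.7 to 214 ± 18.5 CPM (SD, n = 3). On the log2 scale this was 0.50 ± 0.16 (SE), with an edgeR adjusted p of 0.0404. In meKO the diet value was 0.34 ± 0.16 (edgeR adjusted p = 0.311), and averaged over genotypes Blvra rose by 0.42 ± 0.11 (edgeR adjusted p = 0.0162). The interaction was -0.16 ± 0.22 (edgeR adjusted p = 0.882). Corrected for length and GC content, the diet value was 0.08 in WT (edgeR adjusted p = 0.497) and 0.10 averaged over genotypes (0.154), which ends both calls. In WT the call also ended when any WT HFD library, WT chow replicate 1 or 2, meKO HFD replicate 3 or meKO chow replicate 1 was left out, with edgeR adjusted p-values of 0.0521 to 0.158, and in a fit to the 6 WT libraries alone (0.0535).

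Blvrb encodes biliverdin reductase B, which also reduces flavins. It stood at 42.4, 49.97 and 63.0 CPM in WT chow and at 78.5, 68.7 and 87.0 CPM in WT HFD. Values in meKO chow were 60.5, 122 and 56.4 CPM, and in meKO HFD 62.9, 81.6 and 63.6 CPM. WT HFD lay above WT chow without overlap, as 19.4% of all genes did, and meKO chow replicate 2 was above all other libraries. For diet in WT the log2 fold change was 0.59 ± 0.25 (SE, edgeR adjusted p = 0.0944). It passed without meKO chow replicate 2 (0.60, edgeR adjusted p = 0.0279) and in a fit to the 6 WT libraries alone (0.59, 0.0381), and was 0.34 (0.328) after correction for length and GC content. For genotype on chow it was 0.62 ± 0.25 (edgeR adjusted p = 0.196), and 0.19 (0.644) without meKO chow replicate 2. Blvrb levels ran close to those of Ftl1 over the 12 libraries (Pearson's r of log2 CPM 0.91, and 0.88 without meKO chow replicate 2). Both transcripts are short (1028 and 968 bases), and the part of length in this likeness was not tested.

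Ireb2 encodes IRP2, which is degraded when iron is plentiful. It stood at 70.1, 67.1 and 53.0 CPM in WT chow and at 47.0, 52.8 and 48.3 CPM in WT HFD. In meKO chow it was at 48.8, 54.4 and 63.9 CPM, and in meKO HFD at 49.3, 46.4 and 52.3 CPM. The WT HFD libraries lay below the lowest WT chow library, the highest of them only just, and the meKO groups overlapped. In WT, 19.9% of all genes were lower on HFD without overlap. Averaged over genotypes Ireb2 fell by 0.27 ± 0.09 on the log2 scale on HFD (SE, edgeR adjusted p = 0.0412), from 59.6 ± 8.60 to 49.3 ± 2.70 CPM (SD, n = 6). That call was lost after correction for length and GC content (-0.19, edgeR adjusted p = 0.0665). The call also ended when any meKO HFD library, meKO chow replicate 2 or 3, WT HFD replicate 1 or 3 or WT chow replicate 1 or 2 was left out, with edgeR adjusted p-values of 0.0518 to 0.111. In WT the diet value was -0.36 ± 0.13 (edgeR adjusted p = 0.0597), which passed without WT chow replicate 3 (-0.47, adjusted p = 0.00895), with library totals (-0.45, 0.0415) and in DESeq2 (-0.34, 0.0436). Without WT chow replicate 3, edgeR calls over all genes for diet in WT rose from 2634 to 4921. Ireb2 ran opposite to Blvra over the 12 libraries (Pearson's r of log2 CPM -0.86), and the gene most like Ireb2 was Ermp1 (0.97). The Ireb2 and Blvra transcripts are 5770 and 1160 bases long, and the part of length in their opposite course was not tested.

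Aco1 encodes IRP1, which is an aconitase in the cytosol while it holds an iron-sulfur cluster. It stood at 122, 116 and 104 CPM in WT chow and at 117, 119 and 115 CPM in WT HFD. In meKO chow it was at 116, 114 and 119 CPM, and in meKO HFD at 123, 116 and 115 CPM. The 4 groups overlapped, and the group means ran from 114 to 118 CPM. The log2 fold change for diet in WT was 0.04 ± 0.09 (SE, edgeR adjusted p = 0.776), and its sign turned with library totals (-0.05), with library quality weights (-0.01) and without WT chow replicate 3 (-0.01). Corrected for length and GC content it was 0.19 (edgeR adjusted p = 0.0775). Diet averaged over genotypes moved with that correction from 0.03 (edgeR adjusted p = 0.751) to 0.14 (0.0448), past the threshold, and it too turned sign with library totals (-0.03) and with library quality weights (-0.01). The closest genes in pattern were Ext1 (Pearson's r 0.86) and Dpy19l3 (0.85). Without the 2 libraries farthest from the Aco1 median, WT chow replicate 3 and meKO HFD replicate 1, r was 0.73 and 0.32.

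The remaining most similar genes, each the highest among all genes by Pearson's r of log2 CPM over the 12 libraries, were Manbal for Fth1 (0.92), Zdhhc12 for Ftl1 (0.95), Prnp for Tfrc (0.86), Vdac3 for Blvra (0.99) and Htatip2 for Blvrb (0.97). Vdac3 encodes a channel of the outer mitochondrial membrane, and Prnp the prion protein. Without the 2 libraries farthest from the median, r was 0.98 for Blvra with Vdac3 and 0.84 for Tfrc with Prnp.

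Other genes of iron and heme handling were read from 6 lists, of which the listed genes came to 15 of 20 for iron transport and release, 6 of 7 for ferritin chaperones and turnover, 10 of 12 for heme uptake and transport, 8 of 9 for heme synthesis, 22 of 23 for iron-sulfur cluster assembly and 16 of 16 for NRF2 and BACH1 with their targets. For genotype on chow 0 of the 77 listed genes were called by edgeR (10, or 13.0%, had an unadjusted p under 0.05, beside 19.8% of all genes), 0 by limma-voom and 2 by DESeq2 (2.60%, beside 4.56%). For genotype on HFD the single call was Alas1, the first enzyme of heme synthesis. It stood at 79.1, 82.3 and 76.6 CPM in WT HFD and at 129, 169 and 147 CPM in meKO HFD, which is 0.90 ± 0.15 on the log2 scale (SE, edgeR adjusted p = 0.0346). Alas1 is on chromosome 9, 3.02 Mb from Trf. Its call was lost without any WT HFD library, without meKO chow replicate 3 and without meKO HFD replicate 2 or 3 (edgeR adjusted p = 0.0526 to 0.242), and with library totals (0.0669) or limma-voom (0.0526).

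The heme receptor gene Cd163, which takes up hemoglobin bound to haptoglobin, fell with diet in both genotypes. It went from 15.6, 19.7 and 18.5 CPM in WT chow to 6.02, 7.02 and 4.60 CPM in WT HFD, which is -1.61 ± 0.23 on the log2 scale (SE, edgeR adjusted p = 0.00349). In meKO it was at 12.2, 16.3 and 21.9 CPM on chow and at 7.38, 5.04 and 4.92 CPM on HFD, which is -1.53 ± 0.23 (edgeR adjusted p = 0.0181). The groups did not overlap in either genotype, and 19.9% of all genes in WT and 9.38% in meKO were lower on HFD without overlap. In meKO the call was lost without meKO chow replicate 3 and without meKO HFD replicate 2 or 3 (edgeR adjusted p = 0.0834 to 0.160), and in the fit to the 6 meKO libraries alone (0.116). The summed level of 6 markers of resident large peritoneal macrophages was 544 to 718 CPM in WT chow, 323 to 363 in WT HFD, 336 to 440 in meKO chow and 301 to 359 in meKO HFD. The part of the resident markers in the Cd163 values was not tested.

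Slc40a1, the iron exporter, fell with diet averaged over genotypes, by 1.97 ± 0.58 on the log2 scale (SE, edgeR adjusted p = 0.0321). It stood at 6.85, 17.0 and 11.3 CPM in WT chow and at 8.64, 4.41 and 2.80 CPM in WT HFD. In meKO it was at 7.26, 73.5 and 16.2 CPM on chow and at 4.56, 5.72 and 3.69 CPM on HFD. Without meKO chow replicate 2 the value was -1.24 and still passed (edgeR adjusted p = 0.0201). It did not pass when any meKO HFD library, WT HFD replicate 2 or 3 or WT chow replicate 1 or 2 was left out (edgeR adjusted p = 0.0530 to 0.0814). In the same comparison Slc48a1, which moves heme out of the lysosome, fell by 0.59 ± 0.13 (edgeR adjusted p = 0.00815) and was lower in every HFD library than in every chow library. The groups of 711 genes, 5.76% of all, did not overlap between the diets.

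For diet in WT, 20 of the 77 genes (26.0%) were called, near the 21.3% of all genes. That share is also the background for the counts of the single lists that follow. In iron transport and release 2 of 15 rose and 3 fell, beside 9.5% of all genes higher and 11.8% lower. Those that rose, Lcn2 (1.91 ± 0.38, SE), whose product captures bacterial iron carriers, and the metalloreductase gene Steap2 (1.89 ± 0.40), stayed under 1.5 CPM in all libraries. The zinc and iron importer gene Slc39a14 fell by 0.86 ± 0.25, the mitochondrial iron importer gene Slc25a37 by 0.51 ± 0.15 and its relative Slc25a28 by 0.44 ± 0.14. Of 6 ferritin chaperone and turnover genes, the iron chaperone gene Pcbp2 fell by 0.57 ± 0.13 and the ubiquitin ligase gene Herc2 by 0.52 ± 0.16, and 0 rose. In heme synthesis Uros rose by 0.42 ± 0.13 and Cpox fell by 0.55 ± 0.16, of 8 genes. Of 16 genes of the NRF2 and BACH1 list, the thioredoxin gene Txn1 rose by 0.42 ± 0.14 (-0.09 after correction for length and GC content), while Txnrd1 (thioredoxin reductase) fell by 0.59 ± 0.17 and Bach1, the heme-sensing repressor of Hmox1, by 0.64 ± 0.19. The Bach1 groups were 143, 150 and 90.0 CPM in WT chow against 87.0, 83.1 and 76.4 CPM in WT HFD. The edgeR adjusted p-values of the called genes in these 4 lists ran from 0.0115 (Lcn2) to 0.0480 (Txn1).

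Iron-sulfur cluster assembly, which uses iron in the mitochondrion and cytosol, held 7 genes of 22 that rose in WT on HFD and 0 that fell, beside 9.5% of all genes that rose. Nubp2 rose by 0.61 ± 0.15, the ferredoxin gene Fdx2 by 0.67 ± 0.18 and Ciao1 by 0.37 ± 0.11 (SE, edgeR adjusted p = 0.0213, 0.0241 and 0.0364). The median over the 22 genes was 0.30, beside -0.03 for all genes. For diet in meKO 0 of the 22 were called by edgeR (0.105% of all genes), limma-voom or DESeq2 (1.83%), with a median of 0.16. An unadjusted edgeR p under 0.05 was reached by 2 of the 22 there, beside 15.9% of all genes. The interaction gave 0 calls among the 22 with these 3 tools, beside 0.0162% of all genes in edgeR and 0.122% in DESeq2. Of the 22, 0 had an unadjusted edgeR p under 0.05, beside 6.13% of all genes. With so few genes called at all, these counts of 0 do not set the 22 apart.

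Of the 20 genes of the 6 lists called for diet in WT, 6 remained after correction for length and GC content: Lcn2, Steap2, Cd163, Nubp2, Pcbp2 and Cpox. The calls also depended on single libraries. Leaving out WT chow replicate 1 kept 1 of the 20, WT chow replicate 2 kept 2, WT HFD replicate 1 kept 4, WT HFD replicate 2 kept 8 and WT HFD replicate 3 kept 2, while all 20 kept their direction. Without WT chow replicate 3 all 20 remained. Over all genes, calls went from 2634 to 129, 319, 460, 1672 and 96 in the first 5 cases and to 4921 in the last. Of the other regulators, Nfe2l2 (NRF2) had a diet value of 0.21 ± 0.11 in WT (edgeR adjusted p = 0.167) and its target Nqo1 0.60 ± 0.33 (0.191). Averaged over genotypes, the ferritin receptor gene Ncoa4 had -0.16 ± 0.08 (0.138) and the iron transporter gene Slc11a1 -0.05 ± 0.07 (0.599).

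**Figure D5:**
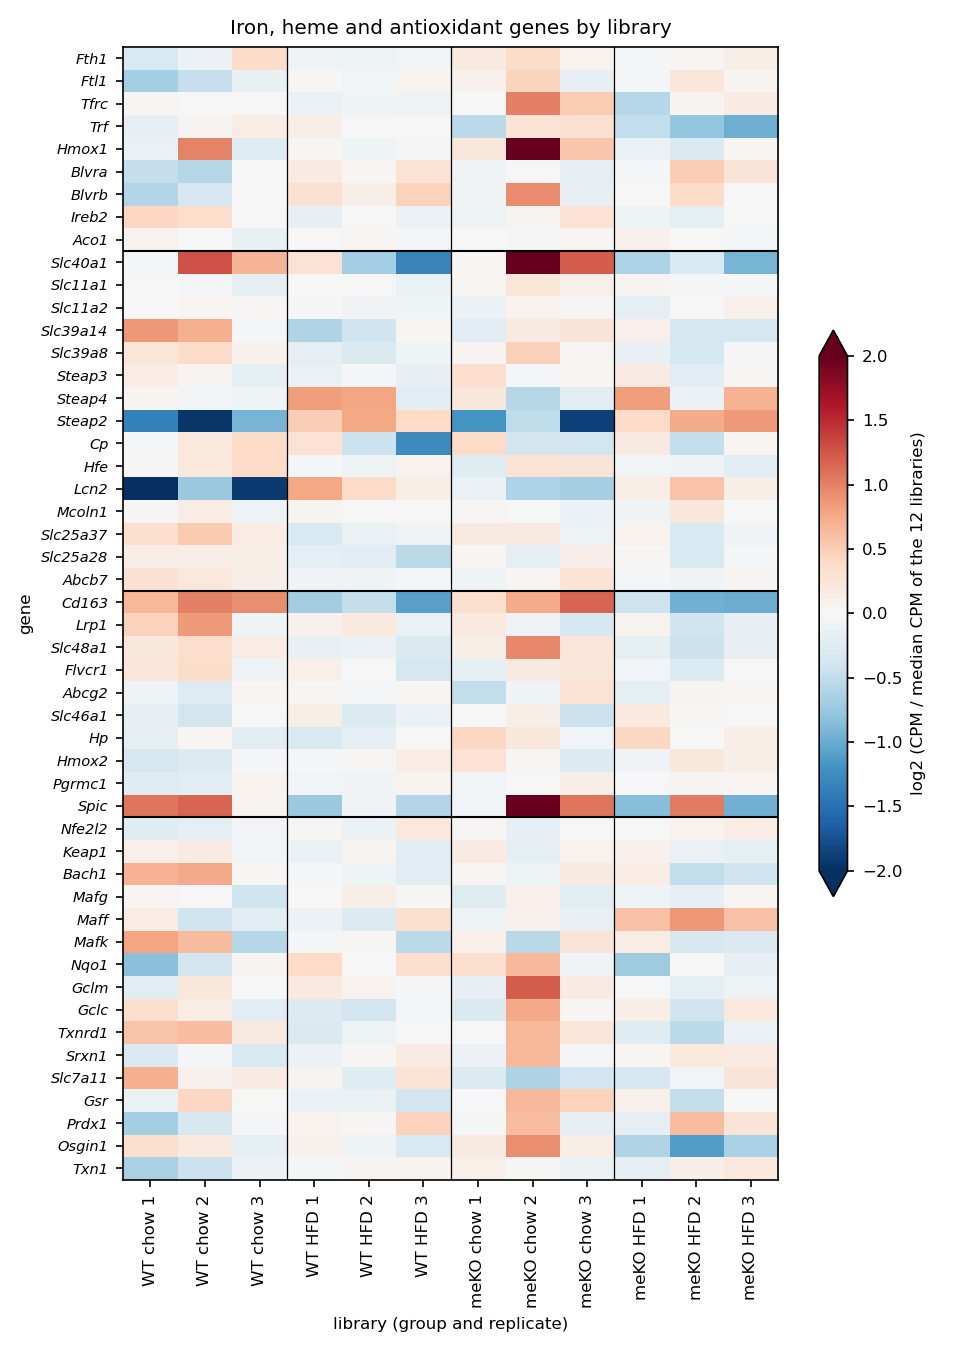
Level of each gene in each library as log2 of its CPM over the median CPM of the 12 libraries (colour, clipped at ±2), with black lines between the 9 genes, iron transport and release, heme uptake and transport, and the NRF2 and BACH1 list. The column of meKO chow replicate 2 is red for Hmox1, Slc40a1, Spic, Slc48a1 and Gclm, and Cd163 is red in the chow columns and blue in the HFD columns.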

How the data were processed

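The table the authors deposited gives counts of reads for each gene in each library, beside gene symbols. The submitters' processing notes name mm10 and DESeq2; the aligner, counting tool and strand setting are not given in the sources used here. Genes without a symbol (186) held 0.440% of the counts. Every listed gene reached at least 0.501 CPM in 6 of the 12 libraries, so the table appears filtered. The main test was that of edgeR 4.0.16, run in R 4.3.3 on the counts (TMM factors, filterByExpr, which kept all 12339 genes, robust quasi-likelihood F test, 4 group means fitted to 12 libraries), with two-sided p-values, Benjamini-Hochberg adjustment over all genes and calls at an adjusted p under 0.05. The SE of a log2 fold change is its size over the square root of F.

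Replicate numbers follow sample order and pair nothing; replicate pairs differed by a chi-square per degree of freedom of at least 16.9, so none is a copy. Alternatives used DESeq2 1.42.0, limma 3.58.1 and mgcv 1.9.3 (smooth length and GC offsets). Length was known for 93.5% of genes, from GENCODE transcripts on GRCm38, the build of mm10. On simulated data for genotype on chow (12339 genes) the test was checked before use. The genes, their lists and the tests were chosen with earlier results of these data known. All 9 genes are named, with Prkce, up to 4 called genes per list and comparison with the smallest p, the regulators and transporters listed, and the genes most similar by Pearson's r; genes named beyond this were chosen after their values were seen, and 1 gene that the rule picks is not reported here.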

Additional observations from a re-analysis of the deposited data

How the results depend on the processing

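No paired analysis was possible because the labels give no replicate numbers shared between groups. Counts of the 9 genes called changed with the tool. For diet in WT, DESeq2 called 3 and voom with library quality weights 4. For diet in meKO both tools called 1, and for genotype on HFD also 1 each. Genotype on chow gave 1 with DESeq2 and 5 with the weights, which also called 1 for the interaction, 4 for genotype averaged and 5 for diet averaged. For diet in WT, library totals gave 2 and the length and GC correction 0. With a library left out, the counts ran from 0 to 3 for diet in WT, 0 to 3 for genotype on chow, 0 to 1 for diet in meKO, 0 to 1 for genotype on HFD, 0 to 0 for the interaction, 0 to 2 for genotype averaged and 1 to 5 for diet averaged. The 3 for genotype on chow and the 2 for genotype averaged came without WT chow replicate 3, where 2543 and 1400 of all genes were called. Of the log2 fold changes of most genes named in the text under these alternatives, 974 kept direction and side of the threshold, 149 lost their call, 39 gained one, and 6 turned sign. These were Txn1 for diet in WT with the length and GC correction (-0.092), Aco1 for averaged diet with library totals (-0.032) and library quality weights (-0.008), and Aco1 for diet in WT (-0.051 with library totals, -0.012 with library quality weights, and with a library left out -0.012, without WT chow replicate 3, to 0.108, without WT chow replicate 1). A library left out leaves its group with 2, and the cause of these changes was not tested. Depth is no limit for the 9 genes, the least counted of which, Ireb2, had at least 1217 counts, while Prkce (0.95 to 4.44 CPM), Spic (0.28 to 2.82 CPM), Lcn2 and Steap2 (under 1.5 CPM) were counted at low depth.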
